A study of Sus scrofa with 226 samples.

Results

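Voltage-gated calcium channels turn a change in membrane voltage into calcium entry, and 9 of their subunit genes were followed here in single sensory neurons of the pig. The 9 genes were a fixed list of names, chosen with earlier results of these data known. They were found by symbol among the 30420 genes of the count table, and each matched 1 identifier. Of the table's genes 14867 had a symbol. The 9 genes together took 0.0395% of all counts. The neurons were cultured cells of the dorsal root ganglion, a cluster of sensory nerve cells next to the spinal cord, from wild-type pigs of 11, 12, 14, 15, 17, 18 or 20 weeks. They were recorded after 1, 2 or 3 days in culture and then collected one by one for Smart-Seq2, a method that copies full-length cDNA of a single cell and carries no molecular identifiers. Of the neurons 78 were taken at 2 days (9 animals), 24 at 3 days (3 animals) and the rest at 1 day (10 animals). All groups were wild type, no treatment is named in the labels, and the animal, not the cell, was the replicate throughout.

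The pore of these channels is an alpha1 subunit, and its type sets how the channel opens and closes. CACNA1A encodes the P/Q-type pore and CACNA1B the N-type pore, both best known at nerve endings, where calcium entry triggers transmitter release. The N-type channel is a drug target in severe pain. CACNA1C and CACNA1D encode L-type pores, CACNA1E the R-type pore, and CACNA1H a T-type pore that opens near the resting potential and is known from rodent touch receptors and pain neurons. CACNA2D1, CACNA2D2 and CACNA2D3 encode alpha2delta subunits, which sit outside the membrane and help bring high-voltage-activated channels to the cell surface. The alpha2delta proteins of CACNA2D1 and CACNA2D2 bind gabapentin, a drug for nerve pain. CACNA2D3 is known from flies and mice as a gene that affects the response to noxious heat.

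Total counts per neuron ran from 109726 to 5506278 with a median of 740524.5, and counts scaled to a cell's total as CPM were used as the level. Levels and shares are not corrected for gene length, so levels are compared between cells for the same gene, and the shares of different genes are given side by side without an order. Neurons were divided by a pair of genes outside the list. OSMR, an oncostatin M receptor subunit, at 32 CPM or more and above ADCYAP1 made an OSMR-high cell (58 cells of 10 animals). ADCYAP1, the peptide PACAP, at 32 CPM or more and not below OSMR made an ADCYAP1-high cell (5 to 27 cells in each of 10 animals). The other 17 cells reached neither level, and 25 cells had both genes at 32 CPM or more. OSMR-high cells had a median of 791.9 CPM of IL31RA and 187.9 CPM of SST, and ADCYAP1-high cells 3.8 and 9.0 CPM. For KIT the medians were 1.2 CPM in OSMR-high and 98.3 CPM in ADCYAP1-high cells. Of the other peptidergic C-fibre markers, TRPA1 had medians of 2.1 CPM in OSMR-high and 15.1 CPM in ADCYAP1-high cells. TAC1 went the other way, with 7527.7 CPM in OSMR-high and 3923.8 CPM in ADCYAP1-high cells. The neuronal gene SNAP25 was found in 100% of both classes, while RBFOX3, another neuronal gene, was found in 1.7% of OSMR-high and 17.2% of ADCYAP1-high cells. Satellite glia markers summed to a median of 66.7 CPM (0.6 to 3134.8) in OSMR-high and 52 CPM (0.0 to 6254.0) in ADCYAP1-high cells, and macrophage markers to 18.9 CPM (0.0 to 3228.5) and 62.5 CPM (0.0 to 5636.8). Genes with a read numbered a median of 14220 in OSMR-high and 13510 in ADCYAP1-high cells.

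A gene was counted as found in a cell at 5 or more estimated counts. CACNA1B (ENSSSCG00000033493) was found in 65% of neurons, with an exact 95% interval of 58.44 to 71.25%. Its level ran from 0.0 to 744.0 CPM over the cells, with a median of 16.5 CPM. Most neurons therefore carried the N-type pore gene, and 57 neurons had no count of it. CACNA1D (ENSSSCG00000011455) was found in 27 cells (11.9%), with a highest level of 53.3 CPM. CACNA1E (ENSSSCG00000015543) was found in 25 cells (11.1%), with a highest level of 36.8 CPM. CACNA1H (ENSSSCG00000034266), the T-type gene, was found in 11 cells (4.9%, interval 2.45 to 8.54%). CACNA1A (ENSSSCG00000013754) and CACNA1C (ENSSSCG00000041764) were each found in 5 cells (2.2%, interval 0.72 to 5.09%). Those 5 genes had a median of 0.0 CPM, and at 1 CPM or more their shares ran from 6.2% for CACNA1A to 36.3% for CACNA1E. The intervals are exact binomial ones for the number of cells and treat cells as independent, which cells of an animal are not.

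Among the alpha2delta genes CACNA2D1 (ENSSSCG00000015402) was found in 90.3% of neurons (interval 85.63 to 93.8%), with a median of 234.6 CPM and a highest level of 1277.8 CPM. CACNA2D3 (ENSSSCG00000027019) was found in 53.1% of neurons (interval 46.37 to 59.75%), with a median of 9.1 CPM and a highest level of 424.3 CPM. CACNA2D2 (ENSSSCG00000011412) was found in 42 neurons (18.6%, interval 13.73 to 24.28%). With every cell thinned to 100000 counts and 1 count taken as found, the shares were 92.5% for CACNA2D1, 55.8% for CACNA2D3, 19.9% for CACNA2D2 and 65% for CACNA1B. The level of CACNA2D1 in the summed cells of an animal ran from 188.6 to 351.2 CPM with a median of 293 CPM over the 10 animals, a coefficient of variation of 19.1%. The same coefficient was 30% for CACNA2D3, 48.4% for CACNA2D2 and 57.4% for CACNA1B. These sums pooled all cells of an animal, whatever their class, so the mix of classes was not held constant.

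By cell, the intervals of the classes did not overlap for CACNA2D3 and CACNA1B and overlapped for the other 7 genes. These intervals treat cells as independent, so this is a description and not a test. How many of all genes would separate in this way was not counted, and the comparison by animal is given below. CACNA2D3 was found in 50 of 58 OSMR-high cells (86.2%, interval 74.62 to 93.85%) and in 65 ADCYAP1-high cells (43%, interval 35.03 to 51.35%). CACNA1B was found in 50 OSMR-high cells (86.2%, interval 74.62 to 93.85%) and in 93 ADCYAP1-high cells (61.6%, interval 53.33 to 69.38%). CACNA2D1 was found in 96.6% of OSMR-high and 93.4% of ADCYAP1-high cells. In the 17 cells of neither class CACNA2D1 was found in 41.2%, CACNA2D3 in 29.4% and CACNA1B in 23.5%, at a median of 8855 genes with a read.

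**Figure D1:**
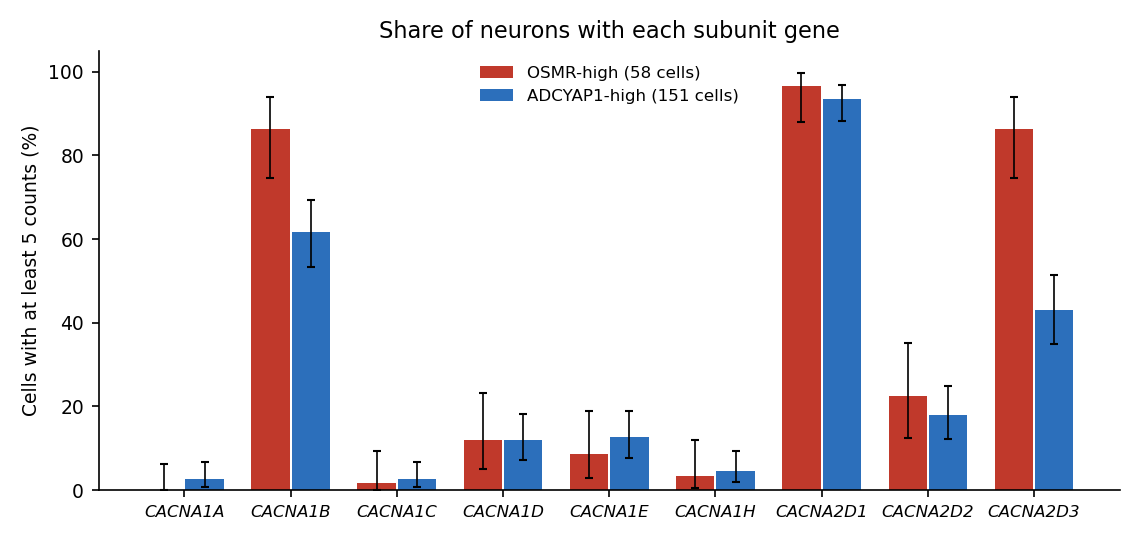
Share of neurons (percent, linear axis from 0) with at least 5 estimated counts of each gene, in OSMR-high cells (red, left bar) and ADCYAP1-high cells (blue, right bar); lines are exact 95% binomial intervals. CACNA2D1 stands above 93% in both classes, CACNA2D3 at 86.2% in OSMR-high against 43% in ADCYAP1-high cells, and CACNA1A, CACNA1C and CACNA1H below 5% in both.

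Combinations of CACNA1B, CACNA2D1 and CACNA2D3 were counted, and those over all 9 genes at once were not. Cells carried a median of 3 of the 9 genes in OSMR-high and 2 in ADCYAP1-high cells, and 7 at most. CACNA1B, CACNA2D1 and CACNA2D3 were all found in 100 neurons (44.2%). That combination held 47 of 58 OSMR-high cells (81%, interval 68.59 to 90.13%) and 50 ADCYAP1-high cells (33.1%, interval 25.68 to 41.23%). At the thinned depth the shares were 77.6% in OSMR-high and 35.1% in ADCYAP1-high cells. CACNA1B with CACNA2D1 but without CACNA2D3 was found in 2 OSMR-high cells (3.4%) and 42 ADCYAP1-high cells (27.8%). CACNA2D1 alone of the 3 genes was found in 4 OSMR-high cells (6.9%) and 35 ADCYAP1-high cells (23.2%). CACNA1B without either CACNA2D1 or CACNA2D3 was seen in 3 neurons (1.3%), and CACNA1B with CACNA2D3 but not CACNA2D1 in 0 neurons (exact upper bound of 1.62%). Nearly every cell with CACNA1B thus also had CACNA2D1, which is 98% of the CACNA1B cells and 70.6% of the CACNA2D1 cells. CACNA2D1 itself was found in 90.3% of all cells.

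**Figure D2:**
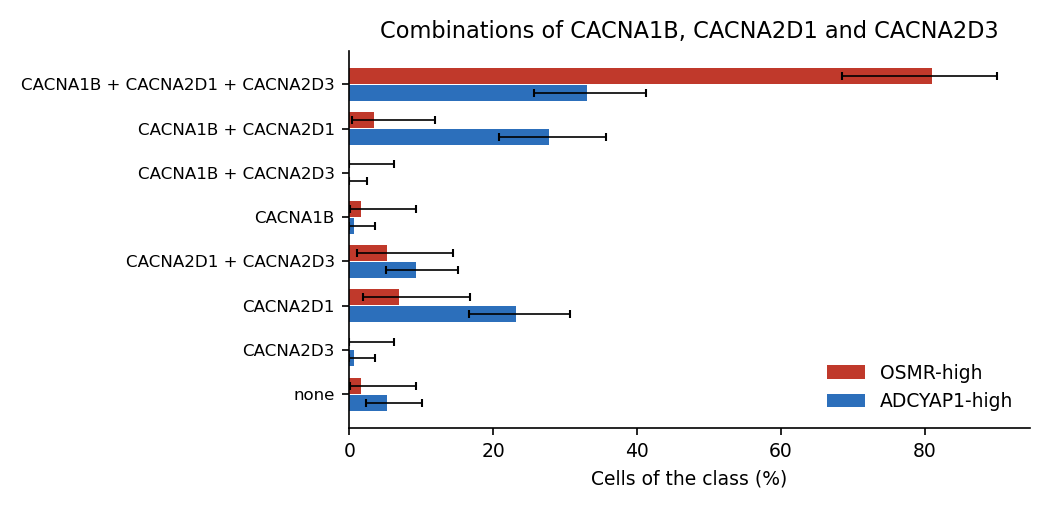
Percent of OSMR-high cells (red, upper bar) and ADCYAP1-high cells (blue, lower bar) in each combination of CACNA1B, CACNA2D1 and CACNA2D3, each found at 5 or more counts; lines are exact 95% binomial intervals. The combination of all 3 holds 81% of OSMR-high and 33.1% of ADCYAP1-high cells.

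CACNA1B was found in 65% of all neurons. It was also found in 22 of 27 cells with CACNA1D (81.5%), 21 of 25 with CACNA1E (84%), 9 of 11 with CACNA1H (81.8%) and 5 of 5 with CACNA1C. For CACNA1A it was 3 of 5 cells. The depth of these cells was not matched to that of the rest. CACNA1D and CACNA1E were found together in 4 cells, which is 14.8% of the CACNA1D cells and 16% of the CACNA1E cells. At least 1 alpha1 gene and at least 1 alpha2delta gene were found together in most neurons, an alpha2delta gene alone in 55, an alpha1 gene alone in 5 and neither in 14. The 14 neurons with neither had a median of 6768.5 genes with a read, against 13733 in the rest. The part of depth in these combinations was not tested beyond the thinned shares.

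The first comparison asked whether the subunit genes differ between the classes of neuron, with counts summed per animal and class (8 OSMR-high and 10 ADCYAP1-high sums, 8 animals with both). CACNA2D3 was higher in OSMR-high cells and CACNA1A lower, and the other 7 members did not pass the threshold. These 2 of 9 members stand beside 7.3% of the 23797 genes tested, with 2.94% of all genes called higher and 4.36% called lower. The members, and the other gene lists below, were chosen with earlier results of these data known. Such a contrast is therefore not a test of a list. Sums were fitted in edgeR by quasi-likelihood with a term for each animal, and calls were made at a Benjamini-Hochberg adjusted p of 0.05. The median log2 difference was 0.12 over the 9 members and -0.10 over all genes.

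CACNA2D3 had 78.9 to 132.3 CPM in the OSMR-high sums with a median of 114.1 CPM, against 7.73 to 34.4 CPM with a median of 20.4 CPM in the ADCYAP1-high sums. The lowest OSMR-high sum lay above the highest ADCYAP1-high sum, and OSMR-high was higher in 8 of 8 animals. How many of all genes had sums apart in this way was not counted. The log2 difference was 2.68 ± 0.27 (SE), 6.4-fold, with an adjusted p of 2.66e-06 in edgeR. It was 2.93 without the cells richest in glial and macrophage markers and 2.85 at 1 day in culture alone. By cell, the median was 107.1 CPM in OSMR-high and 4.6 CPM in ADCYAP1-high cells.

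CACNA2D1 did not follow CACNA2D3. It had 177.9 to 305.2 CPM in the OSMR-high sums with a median of 284.5 CPM, against 203.2 to 405.4 CPM with a median of 303.2 CPM in the ADCYAP1-high sums. The ranges overlapped, and OSMR-high was higher in 3 of 8 animals. Its log2 difference was -0.03 ± 0.15 with an edgeR adjusted p of 0.958, and an interval of -0.32 to 0.26; with DESeq2's size factors the difference was 0.011. Of the counts that CACNA2D1 and CACNA2D3 shared, CACNA2D3 took 29.29 ± 4.11% (SD, 8 sums, 24.5 to 37.6%) in OSMR-high and 6.36 ± 2.49% (10 sums, 3.5 to 10.8%) in ADCYAP1-high cells. This share is not corrected for transcript length and so compares the classes, not the genes. CACNA2D2 had 1.46 to 9.03 CPM with a median of 4.95 CPM in OSMR-high sums, against 0.00 to 4.14 CPM with a median of 2.73 CPM in ADCYAP1-high sums. It was higher in OSMR-high cells of 6 of 8 animals, and its log2 difference of 0.82 ± 0.38 did not pass the test (adjusted p of 0.252 in edgeR).

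CACNA1B, the N-type pore, had 25.1 to 83.1 CPM with a median of 46.4 CPM in the OSMR-high sums, against 12.5 to 95.3 CPM with a median of 23.1 CPM in the ADCYAP1-high sums. OSMR-high was the higher class in 7 of 8 animals, and the exception was animal 6. The log2 difference was 0.87 ± 0.27 with an edgeR adjusted p of 0.0575, which missed the threshold. In animal 6 the ADCYAP1-high sum of 27 cells held 95.3 CPM, of which 1 cell with 744 CPM at 2 days in culture made the larger part, and the sum was 19 CPM without it. Leaving out that cell, a choice made after the data were seen, gave a log2 difference of 1.16 and an adjusted p of 0.00331 in edgeR. The call was also gained with animal 6 left out (1.08, adjusted p of 0.0107 in edgeR) and with animal 2 left out (0.99, adjusted p of 0.0361 in edgeR). Over all 19 alternatives the adjusted p from edgeR or DESeq2 ran from 0.00331 to 0.191, and the gene was called in 8.

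CACNA1A, the P/Q-type pore, was sparse, and its call rested on few cells. Over the sums of the 8 and 10 animals it stood at 0.0167 CPM in OSMR-high cells, a single count among 59977258, against 0.871 CPM in ADCYAP1-high cells, from 13 cells and 150388018 counts. The ratio of OSMR-high to ADCYAP1-high was 0.0191 with an exact interval of 0.000481 to 0.109. That interval treats each count as an independent draw. The reads carry no molecular identifiers and the cells of an animal are not independent, so the interval is too narrow. With the animals that had a single OSMR-high cell included, OSMR-high cells held 3 counts in 2 cells (0.0469 CPM). The ratio was then 0.0538, with an interval of the same kind of 0.011 to 0.161. In ADCYAP1-high cells 88 of its counts (67.3%) came from 1 cell. The fitted log2 difference of -5.19 ± 1.44 had an edgeR adjusted p of 0.0388, and OSMR-high was lower in 5 of the 8 animals, with no count in either class in the other 3. Without the cell with most CACNA1A, again a choice made after the data were seen, the log2 difference was -3.52 and the adjusted p 0.203 in edgeR. Leaving out animal 4, 5, 6, 7 or 9 also ended the call, with adjusted p-values of 0.255, 0.077, 0.0563, 0.136 and 0.1 in edgeR, while the log2 differences were -4.60, -5.17, -5.24, -4.88 and -5.16.

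The remaining alpha1 genes did not pass the test. CACNA1D had a median of 3.21 CPM (0.52 to 21.5) in OSMR-high and 1.37 CPM (0.28 to 4.82) in ADCYAP1-high sums, a log2 difference of 0.96 ± 0.47. For CACNA1E the medians were 0.818 CPM (0.00 to 3.21) in OSMR-high and 1.77 CPM (0.83 to 6.2) in ADCYAP1-high sums, a log2 difference of -0.88 ± 0.56. CACNA1H and CACNA1C differed by -1.24 ± 1.02 and 0.12 ± 0.93. The adjusted p-values of these 4 genes in edgeR ran from 0.283 to 0.972, and their intervals were wide, from 0.04 to 1.87 for CACNA1D and from -1.70 to 1.95 for CACNA1C.

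**Figure D3:**
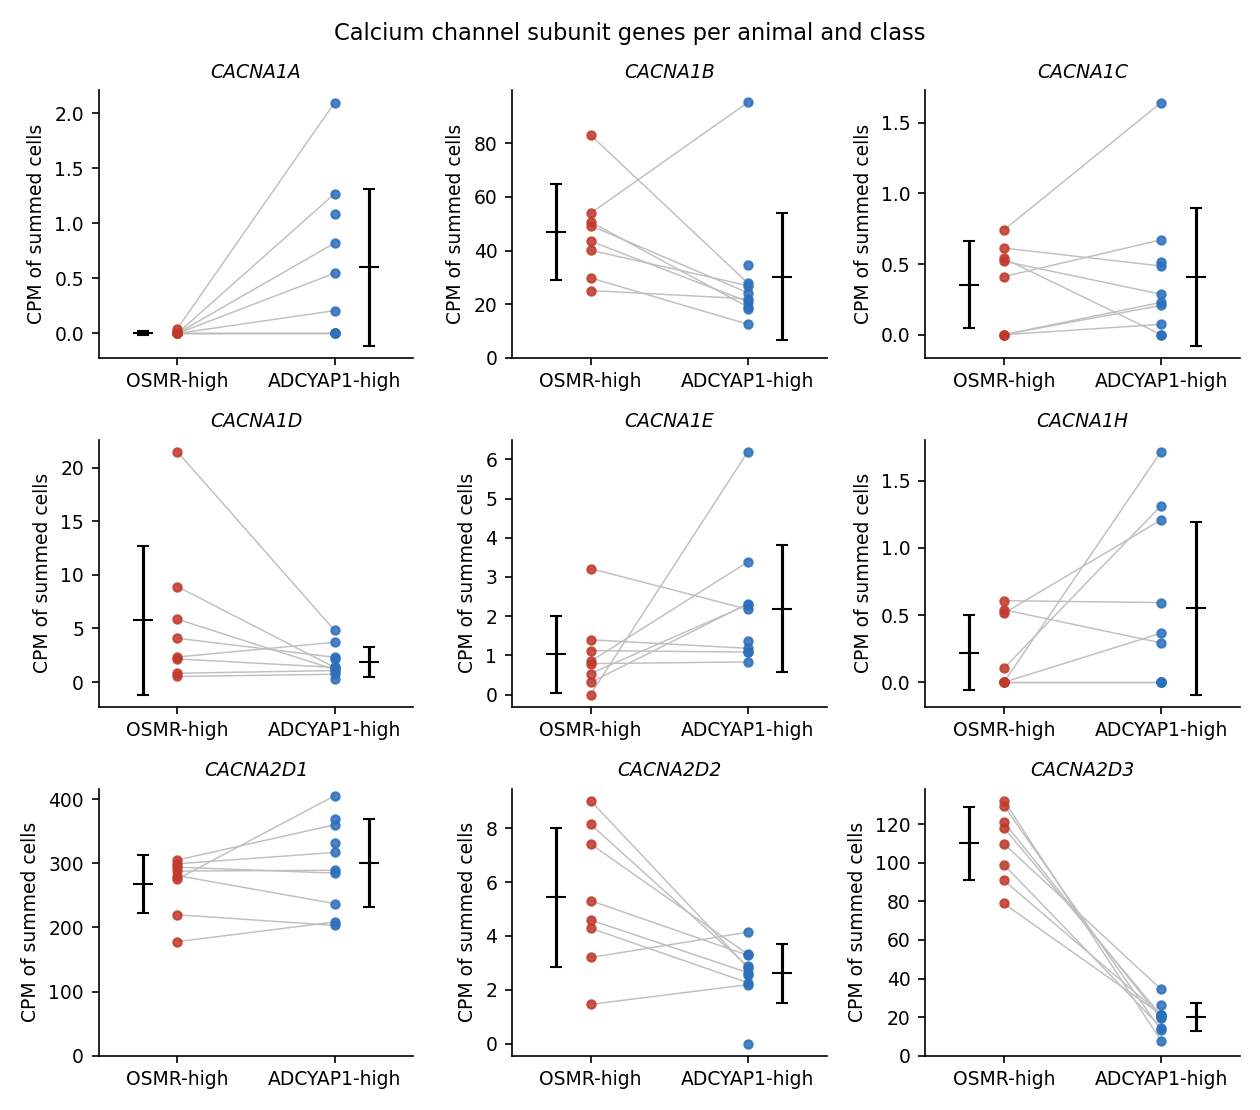
CPM of the summed cells of each animal in OSMR-high (red, left) and ADCYAP1-high cells (blue, right) for the 9 genes, on linear axes; grey lines join the classes of 1 animal, and black marks are the mean ± SD over 8 and 10 animals. For CACNA2D3 all OSMR-high points (78.9 to 132.3 CPM) lie above all ADCYAP1-high points (7.73 to 34.4 CPM), and the single high ADCYAP1-high point for CACNA1B is animal 6.

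The beta subunits, which sit inside the cell and bind the pore, differed between the classes by gene. Of 17 other calcium channel subunit genes 10 were tested, 1 was higher and 1 lower in OSMR-high cells. CACNB4 had 20.5 to 47.4 CPM in the OSMR-high sums, against 4.34 to 34.6 CPM in the ADCYAP1-high sums, and was higher by 1.49 ± 0.30 on the log2 scale (adjusted p of 0.00308 in edgeR). CACNB2 had 0.00 to 1.62 CPM in the OSMR-high sums, against 4.00 to 12.2 CPM in the ADCYAP1-high sums, with no overlap. It was lower by 11.3-fold (log2 difference of -3.50 ± 0.44, adjusted p of 4.02e-05 in edgeR). The share of all genes without overlap was not counted. CACNB1 had medians of 3.62 CPM in OSMR-high and 6.09 CPM in ADCYAP1-high sums, and CACNB3 of 10.4 and 10.9 CPM. The T-type genes CACNA1G and CACNA1I had medians of 0 CPM in the OSMR-high sums, against 0.0304 and 0 CPM in the ADCYAP1-high sums.

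Of the genes that act on these channels or follow their calcium, some passed the test in each direction, with 2.94% of all genes called higher and 4.36% lower. Among 37 regulators 29 were tested, 2 were higher and 4 lower. CACHD1, an alpha2delta-like protein, was higher by 1.59 ± 0.28 on the log2 scale, and RRAD, a small GTPase that restrains calcium channels, was lower (-3.02 ± 0.53). STAC, an adaptor of L-type channels, was higher (0.80 ± 0.22), and RIMS3, CALM3 and CAMK2G were lower. Of 12 calcium-activated channel genes tested ANO3 was higher (2.11 ± 0.27), and ANO4, ANO5 and the small-conductance potassium channel KCNN2 (-2.89 ± 0.66) were lower. Among 25 genes of calcium stores, pumps and buffers SLC8A1, a sodium-calcium exchanger, was higher by 4.17 ± 0.51, an 18-fold difference, with MCU, the mitochondrial uniporter (1.13 ± 0.18). The plasma membrane calcium pumps ATP2B4 (-1.22 ± 0.17), ATP2B1 (-1.02 ± 0.17) and ATP2B3 (-3.32 ± 0.74) and the calcium-binding protein CALB2 (-4.23 ± 0.85) were lower. Among the transmitter release genes SYT1 and SYT7 were higher and SYT4 was lower. All of these had edgeR adjusted p-values of 0.0454 or below. None of 18 tested markers of satellite glia, Schwann cells and macrophages was called, and of 6 fibroblast and vessel markers DCN was higher in OSMR-high cells (4.59 ± 0.53). DCN was also lower at higher X50Hz (-3.19 ± 0.58), and its part in these results was not tested.

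The second question was whether neurons with other recorded properties carried other levels of these genes. The deposited cell table gives X50Hz as a whole number from 0 to 20 for all cells but 1, with no definition or unit. Its median was 3 in OSMR-high and 16 in ADCYAP1-high cells, and 0 OSMR-high and 66 ADCYAP1-high cells had the value 20. For each animal, log2(CPM + 1) of each gene was regressed on the rank of the recorded value among that animal's cells, scaled from 0 to 1. Tied cells shared a mean rank. The slope is the difference over the whole rank scale, on the log2(CPM + 1) scale, which understates the change of low genes. For X50Hz 73 cells were tied at 20, so the highest rank that a cell held was 0.8 to 1 by animal. The fitted difference between the cells at the top and bottom ranks was smaller than the slope, except in animals 1 and 8, where it equalled the slope. The slopes of the 10 animals were tested with limma over all genes. CACNA1A, CACNA1C and CACNA1H lay under the filter of 1 CPM in 20% of cells and were not tested.

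CACNA2D3 and CACNA1B were lower in neurons with higher X50Hz values, and the other 4 of 6 tested members were not called. Of the 18763 genes tested 3.64% were called, 0.224% higher and 3.42% lower. Since the members were chosen with earlier results of these data known, this contrast is not a test of the list. The count of 683 genes was 309 without animal 7, 414 without animal 4 and 439 without animal 9, and with genes per cell as a term it was 398, of which 243 were lower and the rest higher. For CACNA2D3 the fitted level ran over animals from 0.67 to 3.98 with a median of 1.92 at the highest rank held, against 3.16 to 7.33 with a median of 5.75 at the lowest, a mean difference of -3.49 ± 1.95 (SD). Its slope was -4.08 ± 0.68 (SE) with an adjusted p of 0.00149 in limma, negative in 10 of 10 animals and between -8.24 and -0.83. For CACNA1B the fitted level ran from 1.00 to 3.75 with a median of 2.27 at the highest rank held, against 3.44 to 6.51 with a median of 5.08 at the lowest, a mean difference of -2.57 ± 1.21 (SD). Its slope was -2.95 ± 0.47 with an adjusted p of 0.00107 in limma, also negative in 10 of 10 animals and between -4.60 and -0.99. The within-animal Spearman correlation with X50Hz averaged -0.441 ± 0.232 (SD) for CACNA2D3 and -0.384 ± 0.170 for CACNA1B over 10 animals, with the cells of an animal sharing its culture. OSMR, the gene that defines a class, averaged -0.390 ± 0.189.

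CACNA2D1 was not called. Its fitted level had a median of 6.95 at the highest rank held and 7.89 at the lowest, with a slope of -0.49 ± 0.37 and a limma adjusted p of 0.525. Within OSMR-high cells its mean slope was -1.57 ± 0.91 (SD), negative in 5 of 5 animals, and within ADCYAP1-high cells -0.65 ± 1.48, negative in 7 of 9, and the difference between the classes was not tested. The slopes of CACNA1D, CACNA1E and CACNA2D2 were -0.54 ± 0.34, -0.50 ± 0.31 and -0.26 ± 0.31. Of the other lists CACNB4 (-1.72 ± 0.43), ANO3 (-3.85 ± 0.53), KCNN3 (-1.72 ± 0.36), SLC8A1 (-2.92 ± 0.47) and SYT7 (-1.66 ± 0.37) were lower at higher X50Hz, with limma adjusted p-values of 0.0268 or below. Those were 1 of 7 other subunit genes tested, 2 of 10 calcium-activated channels, 1 of 19 store, pump and buffer genes and 1 of 21 release genes, with 0 of 27 regulators.

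Because X50Hz itself differed between the classes, the slopes were also taken with the class as a term and within the classes. With the class as a term CACNA1B had a slope of -2.78 and CACNA2D3 of -2.66, and neither was called (adjusted p of 0.262 and 0.365 in limma). At that setting 1 of all genes was called. Among ADCYAP1-high cells alone the mean slope of CACNA1B was -1.85 ± 1.22 (SD), negative in 9 of 9 animals, and that of CACNA2D3 -1.99 ± 2.46, negative in 7 of 9. The limma adjusted p of both was 0.396, and 0 genes were called. Among OSMR-high cells CACNA1B had a mean of -2.04 ± 1.95, negative in 4 of 5 animals, and CACNA2D3 of -2.65 ± 3.23, negative in 5 of 5. An exact sign-flip test over the 10 animals and all cells gave both genes its smallest p of 0.00195, with an adjusted p of 0.0798. With the number of genes per cell as a term both stayed called, at -2.46 for CACNA1B (adjusted p of 0.00984 in limma) and -3.67 for CACNA2D3 (0.0165 in limma).

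**Figure D4:**
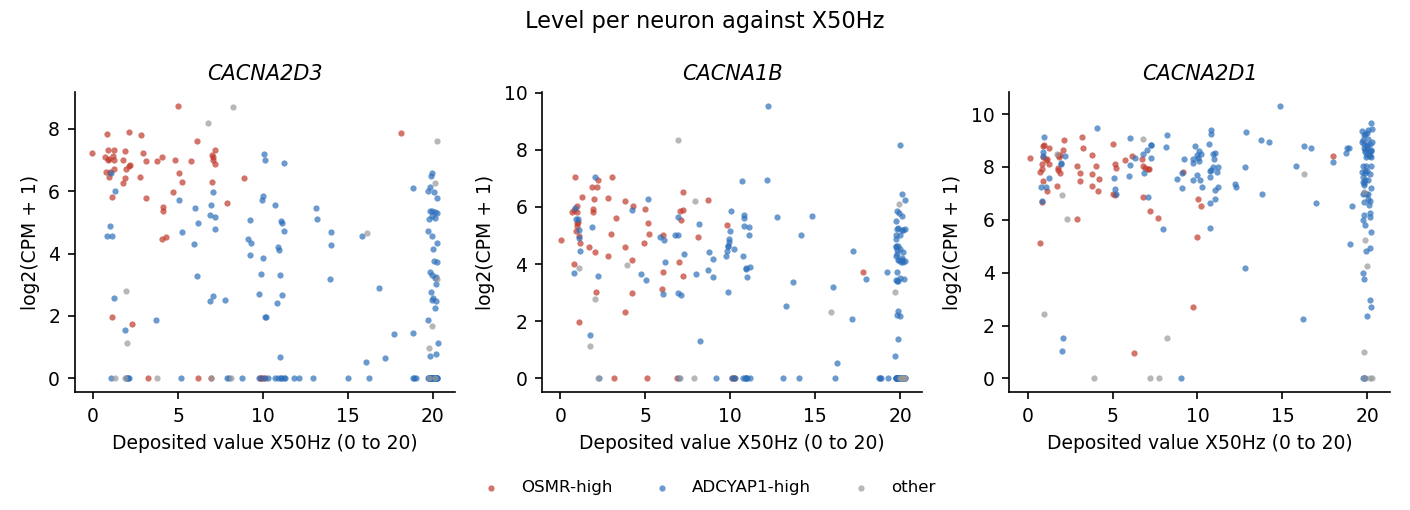
Level of CACNA2D3, CACNA1B and CACNA2D1 in each neuron with a value, as log2(CPM + 1), against the deposited value X50Hz, jittered sideways; red points are OSMR-high, blue ADCYAP1-high and grey other cells. Neurons without a count lie at 0, OSMR-high cells lie mostly at low X50Hz with a median of 3, and CACNA2D1 had no called slope along the axis.

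The other recorded values gave no called member. They are named APD, Shoulder and AHP_new in the cell table, and come with no definition or unit in the sources used here. Of the 18763 genes limma called 0% for each, and an unadjusted p under 0.05 was found for 2236 genes with APD, 1372 with Shoulder and 428 with AHP_new, against 938.15 expected by chance. The exact sign-flip test called 0 genes too, but its smallest p is 0.00195 (0.00391 over the 9 animals of Shoulder), which leaves it little room to pass an adjustment over all genes.

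CACNA1B had the largest slope on APD of the 6 tested members and was not called. Its fitted level ran from 0.93 to 6.96 with a median of 4.76 in the highest-ranked cell, against 0.58 to 3.85 with a median of 2.42 in the lowest-ranked cell. The slope was 2.19 ± 0.60, positive in 9 of 10 animals, with an unadjusted p of 0.00161 and an adjusted p of 0.186 in limma. With animals weighted it was called (2.34, adjusted p of 0.036 in limma). Among ADCYAP1-high cells alone the mean slope was 0.11 ± 3.16 (SD), positive in 5 of 9 animals. APD had a median of 4.123 in OSMR-high and 2.721 in ADCYAP1-high cells. The slope of CACNA2D3 on APD was 1.20 ± 0.55 over all cells (adjusted p of 0.403 in limma), and in ADCYAP1-high cells alone its mean was -2.04 ± 2.54 (SD), negative in 7 of 9 animals. The other 4 tested members had slopes on APD between 0.23 and 0.57.

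With Shoulder, tested over 9 animals, the 6 tested members had slopes between -1.31 for CACNA2D3 and 0.17 for CACNA2D1, and adjusted p-values of 0.68 or above in limma. Within OSMR-high cells CACNA1B and CACNA2D1 had positive slopes in 5 of 5 animals (means of 0.99 ± 0.85 and 0.67 ± 0.48), and within ADCYAP1-high cells in 4 and 5 of 9 animals (means of -0.42 ± 2.13 and 0.14 ± 1.35). The difference between the classes was not tested. In OSMR-high cells CACNA2D2 and CACNA2D3 had larger mean slopes (1.55 ± 1.52 and 1.36 ± 2.18), each positive in 4 of 5 animals. CACNA1D and CACNA1E had means of 0.07 ± 1.05 and -0.41 ± 1.7, each positive in 3 of 5. The shared signs were picked from all tested members and recorded values. By Spearman correlation with Shoulder in OSMR-high cells, CACNA1B was positive in 4 animals and negative in 1 (mean 0.186 ± 0.249). CACNA2D1 was positive in all 5 by that measure (mean 0.296 ± 0.205). With AHP_new the slopes ran from -0.51 for CACNA2D3 to 1.08 for CACNA1B, which was positive in 9 of 10 animals and had an unadjusted p of 0.0141 and an adjusted p of 1 in limma. With genes per cell as a term that CACNA1B slope was -0.21.

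**Figure D5:**
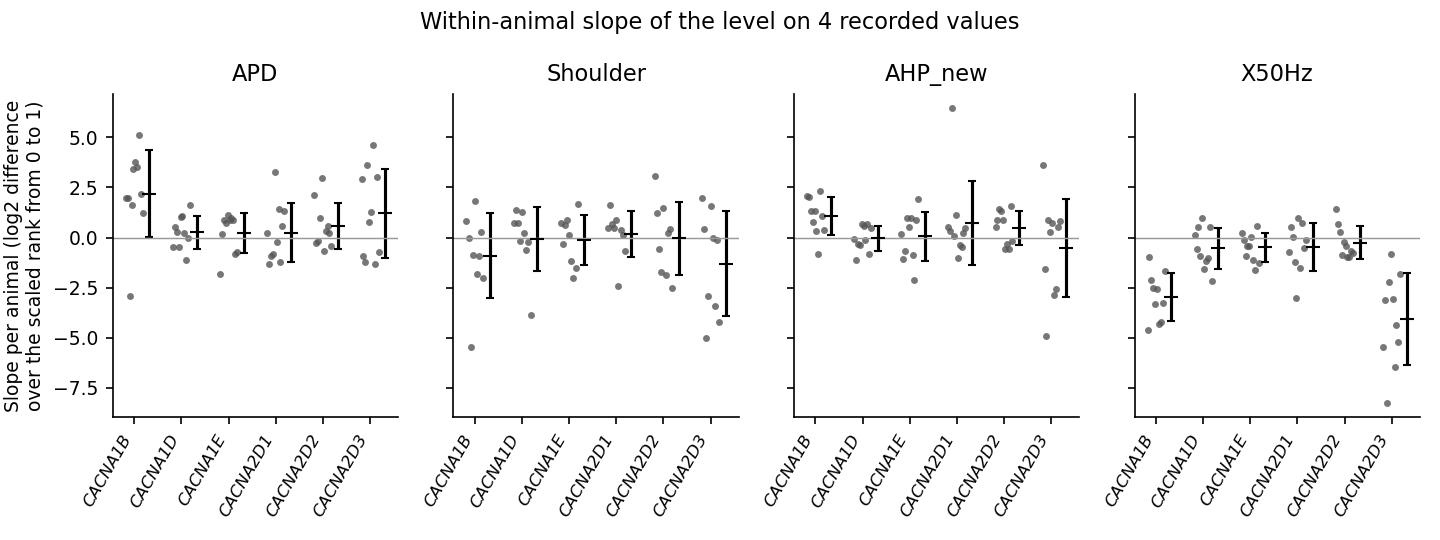
Slope of log2(CPM + 1) on the within-animal rank of APD, Shoulder, AHP_new and X50Hz for the 6 tested genes; each point is 1 animal (10 animals, 9 for Shoulder) and black marks are the mean ± SD. All 10 animals lie below 0 for CACNA1B and CACNA2D3 with X50Hz, while for the other values the points spread to both sides of 0.

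Time in culture and age were compared next, with counts summed per animal and day (20 sums of at least 3 cells). The day and age sums pooled OSMR-high, ADCYAP1-high and other cells, with no term for class. The mix of classes in a sum was therefore not held constant, and its part in these results was not tested. At 2 days against 1 day edgeR called 0% of 23122 genes, with 839 genes at an unadjusted p under 0.05 against 1156.1 expected by chance, and 0 of 9 members. DESeq2 called 70 genes and 0 members. CACNA2D1 had 149.7 to 377.1 CPM at 2 days with a median of 296.7 CPM, against 212.4 to 341.8 CPM with a median of 275.4 CPM at 1 day. CACNA2D3 had 8.95 to 56.9 CPM at 2 days with a median of 46.3 CPM, against 18.0 to 72.7 CPM with a median of 46.7 CPM at 1 day. CACNA1B had 13.9 to 279.9 CPM at 2 days with a median of 27.8 CPM, against 21.7 to 84.1 CPM with a median of 29 CPM at 1 day. The 279.9 CPM belong to animal 6 and fall to 29.1 CPM without the cell of 744 CPM. The log2 differences were 0.02 ± 0.16, -0.17 ± 0.40 and 0.22 ± 0.48 in the order CACNA2D1, CACNA2D3 and CACNA1B, so the ranges of the days overlapped for all 3 genes.

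At 3 days against 1 day, with 3 sums at 3 days, edgeR called 0.00432% of the genes (1 gene, with 2726 at an unadjusted p under 0.05) and DESeq2 called 750 genes, with 0 of 9 members in either. CACNA2D1 differed by -0.12 ± 0.23, CACNA1B by -0.87 ± 0.64 and CACNA2D3 by 0.00 ± 0.53 on the log2 scale. The other 6 members lay between -0.99 ± 2.08 for CACNA1C and 4.29 ± 3.03 for CACNA1A. With age, over 9 sums at 1 day in culture, edgeR called 0% of 19731 genes (1224 at an unadjusted p under 0.05) and DESeq2 called 56. Animal 8, the only one of 20 weeks, had 2 cells at 1 day and was not in this fit. The ages in it thus ran from 11 to 18 weeks. None of the 6 members tested was called by either tool, and the slopes per week ran from -0.09 ± 0.07 for CACNA2D3 to 0.26 ± 0.12 for CACNA1E (unadjusted p of 0.0488, adjusted p of 0.803 in edgeR).

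Across the cells of an animal the members followed each other weakly. The Spearman correlation averaged 0.353 ± 0.223 (SD) between CACNA2D3 and CACNA2D2, positive in 10 of 10 animals, 0.304 ± 0.283 between CACNA2D3 and CACNA1B, positive in 8 of 10, and 0.130 ± 0.274 between CACNA2D3 and CACNA2D1. By the same measure, over 8063 other genes with a symbol and at least 1 CPM in 50% of cells, the genes most like CACNA2D3 were CNTN1 (0.583 ± 0.202), PGAP1 (0.578 ± 0.193) and GABBR2 (0.578 ± 0.162). CNTN1 is a neuronal adhesion protein and GABBR2 a GABA receptor subunit. Those most like CACNA2D1 were SYT4 (0.606 ± 0.135), a synaptotagmin, ITGB1 (0.602 ± 0.205), an integrin, and VGF (0.563 ± 0.210), a secreted neuropeptide precursor. Those most like CACNA1B were TCAF1 (0.506 ± 0.219), which associates with TRP channels, PLXDC2 (0.504 ± 0.222) and DNER (0.486 ± 0.199), a neuronal transmembrane protein. All 9 of these correlations were positive in 10 of 10 animals. The genes were picked by the mean over the same animals, so the shared sign is no separate support. Cells of an animal share culture and depth, so the values are a description. For the other 6 members the highest means were 0.297 to 0.407, over 6 to 10 animals, and are read no further.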

How the data were processed

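The authors deposited estimated counts per gene and neuron without scaling for depth, and 52.0% of the values above 0 were not whole. The deposited cell table holds other values, with no units stated, and names the animal of each cell; 43 of its 269 lines belong to no sample used here. Per the submitters' processing notes bcl2fastq 2.20 was used. The counting tool, aligner and build were not given in the sources used here, so no coordinates are printed. Per the labels' protocols a recording pipette and then a larger one took up each cell, so no doublet caller was run. The reads do not mark strand in Smart-Seq2, so overlapping genes on opposite strands cannot be told apart.

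Sums of at least 2 cells per animal and class, or 3 per animal and day, were rounded and tested with edgeR 4.0.16 (TMM, filterByExpr, quasi-likelihood test). Slopes needed 6 cells per animal and were tested with limma 3.58.1 (eBayes with trend); DESeq2 1.42.0 was an alternative. R 4.3.3 and SciPy 1.17.1 were used. The class test and the X50Hz slope test were also run on simulated counts with known changes. Those counts had no animal effect, and the changes were placed in well-counted genes only. That check therefore does not cover sparse genes such as CACNA1A. The class fit held 8 animals on both sides, so the animal itself pairs the sums. Class sums held 673015 to 45524996 counts. The members and lists were chosen with earlier results of these data known; named genes are the 9 members, called genes of the other lists, and the 3 genes most like each member. IDs for CACNG6, STAC3, CABP1, LRP1, GNAO1, RYR1, VAMP1, UNC13A, PCLO, CADPS, CALCB, NEFH, S100B and NCMAP were not matched and are not analysed here. Alternatives covered scaling, filters, pseudocounts, class levels, single animals, depth, class terms and glia-rich cells. One result of the transmitter release list is not reported here.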

Additional observations from a re-analysis of the deposited data

Results flagged for a closer look

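Of 42 groups of animals examined for a single animal far from the rest, 10 had one. The rule flags about 1 in 20 by chance where values are normally spread. Low CPM sums are not spread in that way, so the number of flags cannot be set against chance.

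Among the levels of the summed cells, CACNA1B was at 95.3 CPM in ADCYAP1-high cells of animal 6, with the nearest other animal at 34.7 CPM. CACNA1D was at 21.5 CPM in the 5 OSMR-high cells of animal 5, with the nearest at 8.91 CPM. CACNA1E was at 3.21 CPM in OSMR-high cells of animal 7, nearest 1.4 CPM, and at 6.2 CPM in ADCYAP1-high cells of animal 10, nearest 3.39 CPM. CACNA1C was at 1.64 CPM in ADCYAP1-high cells of animal 5, nearest 0.671 CPM. CACNA1A was at 0.043 CPM in OSMR-high cells of animal 4 and at 0.0 CPM in the other 7 animals with at least 2 such cells. CACNA2D2 was at 0.0 CPM in the 5 ADCYAP1-high cells of animal 8, where the nearest animal had 2.19 CPM.

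Among the slopes, CACNA2D1 had 6.46 on AHP_new in animal 3, with the nearest animal at 1.15. CACNA1B had -2.92 on APD in animal 3, nearest 1.23. CACNA1D had -3.89 on Shoulder in animal 10, nearest -0.63.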

How the results depend on the processing

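CACNA2D3 kept its direction and call between the classes under all 19 alternatives (2.47 to 2.93), and CACNA2D3 and CACNA1B kept their X50Hz calls without each animal. Depth limits the 6 genes found in under 20% of cells, and shares of cells moved beyond their intervals in 14 of 27 cases, all from another level for a gene to count as found. The cause of the changes below was not tested.

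Between the classes the share of all genes called was 9.33% with DESeq2 and 3.1% at 1 day in culture alone, against 7.3%, and 1 member was called without the replicate block, where CACNA1A was not tested, and without the cell highest in CACNA1A. Leaving out 1 animal gave 1 to 3 called members, log2 differences of -0.36 to 0.32 for CACNA1C and -0.11 to 0.049 for CACNA2D1. The CACNA2D1 difference was 0.011 with size factors and DESeq2, 0.018 without glia-rich cells and 0.24 at 1 day alone.

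At 2 days against 1 day DESeq2 called 0.233% of genes. CACNA1B was -0.12 and CACNA2D1 -0.012 without the cell highest in CACNA1B, and CACNA2D1 was -0.0073 without the replicate block. Without 1 animal 0 to 0.00443% were called, and the differences were -0.23 to 0.53 for CACNA1B, -0.04 to 0.11 for CACNA2D1 and -0.42 to 0.2 for CACNA2D3. At 3 days against 1 day the share was 2.49% with DESeq2, 0.00998% with no filter, 0.197% without the replicate block and 0% without glia-rich cells. CACNA2D1 was 0.011 without the block and CACNA2D3 -0.027 with no filter. Without 1 animal 0 to 0.00442% were called, with -0.24 to 0.13 for CACNA2D1 and -0.44 to 0.39 for CACNA2D3. With age DESeq2 called 0.19% of genes, and without 1 animal CACNA1B had -0.029 to 0.13 and CACNA2D1 -0.043 to 0.0064 per week.

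For APD 0.885% of genes were called with genes per cell as a term and 0.608% with animals weighted, among them 1 member, CACNA1B (2.34, adjusted p of 0.036 in limma). CACNA2D1 was -0.011 with genes per cell as a term and -0.1 to 0.41 without 1 animal. CACNA2D3 was -1.55 with class as a term, -2.04 in ADCYAP1-high cells and -1.64 with class and genes per cell. On Shoulder CACNA2D1 ran from -0.0086 to 0.5 without 1 animal. On AHP_new CACNA1B was -0.21 with genes per cell as a term, and CACNA2D1 -0.0046 with class and -0.015 in ADCYAP1-high cells.

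For X50Hz the share of all genes called was 0.00533% with class as a term, 2.12% with genes per cell, 0% in ADCYAP1-high cells, in the exact sign-flip test and with class and genes per cell, and 1.65 to 3.36% without 1 animal, against 3.64%. Of the members 0 were called with class, in ADCYAP1-high cells, in the sign-flip test, or with both terms. CACNA2D1 was 0.30 with genes per cell as a term, CACNA2D2 0.013 with class and 0.59 with both terms, and CACNA1D 0.15 with both.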
